A study of Mus musculus with 6 samples.

Results

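Macrophage transcripts other than those of MHC class II were followed in cells sorted from dystrophic muscle. They were 10 genes picked by symbol from the 21671 genes of the deposited expression table: C1qa, C1qb and C1qc, Csf1r, Mrc1, Cd163, Lyz2, Cd68, Tyrobp and Fcer1g. All 10 were found, and all 10 were among the 13934 genes whose highest value over the libraries exceeded 0.25 RPKM (reads scaled to transcript length and library size), the minimum for a test. RNA-Seq was performed on 3 groups of 2 libraries, each from the pooled gastrocnemius muscles of 2 mice: satellite cells (SCs, the muscle stem cells) from PBS-injected mice (SCs CTRL), SCs from diphtheria toxin (DT)-injected mice (SCs DT), and α7Sca1 cells from DT-injected mice. All mice of all groups, controls included, were homozygous mdxITGAM-DTR, both sexes, 10 to 12 weeks old: they lack dystrophin through the mdx mutation and carry a transgene in which the promoter of ITGAM (CD11b) drives the DT receptor and EGFP. This promoter is active in monocytes, macrophages and granulocytes. The authors state that DT does not target granulocytes in this model, and they measured more neutrophils in DT-injected muscle. DT or PBS was injected into the hind limb muscles every 4 days and cells were sorted at 15 days. SCs were taken as Lin-/Sca1-/α7+ and α7Sca1 cells as the α7+ cells that also carry Sca1, where Lin- excludes cells with CD31, CD45 or Ter119. As macrophages carry CD45 on their surface, the gate was set to leave them out, and the 10 transcripts were thus measured in cells sorted as negative for leukocytes.

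Macrophages are the phagocytes of tissues. They take up dead cells and debris through scavenger and lectin receptors, degrade them in lysosomes, live on the growth factor CSF1, and secrete C1q, the recognition unit of the classical complement pathway. In injured and dystrophic muscle they clear dying fibers and release signals that act on SCs and fibroadipogenic progenitors (FAPs). The 10 transcripts stand for these functions: the chains of C1q, the receptor of CSF1, the surface receptors Mrc1 and Cd163, the lysosomal or secreted proteins Cd68 and Lyz2, and the signalling adaptors Tyrobp and Fcer1g.

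The libraries were first compared with their labels. The summed level of 11 SC genes was 1016 and 1202 RPKM in SCs CTRL, 1046 and 1173 in SCs DT and 350 and 445 RPKM in α7Sca1 cells. Ly6a, which encodes Sca1, was at 21.6 to 55.2 RPKM in the 4 SC libraries and at 344 and 248 RPKM in α7Sca1 cells, and Itga7 (α7 integrin) was at 41.8 to 78.3 RPKM in all 6 libraries. The first SCs CTRL library stood apart from the other SC libraries. The sum of 10 FAP and fibroblast genes was 3400 RPKM in it, 611 RPKM in the second and 509 and 698 RPKM in SCs DT. Col1a1 alone was at 2287 RPKM in the first and 192 RPKM in the second. In α7Sca1 cells the sum was 2545 and 2007 RPKM. The first SCs CTRL library was also the highest of the 6 for 9 of the 10 macrophage transcripts, and the values without it are given with each comparison. The sorted RPKM values of any pair of libraries differed by at most 0.0192 RPKM, so the table had been brought to one distribution before deposit and the read depth of each library is unknown.

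The 10 genes lie at 8 places of the genome (coordinates of NCBIM37/mm9, GENCODE mouse release 1). The C1q genes form a cluster on the minus strand of chromosome 4: C1qb at chr4:136436044-136442102, C1qc at chr4:136445719-136448980 and C1qa at chr4:136451832-136454718, with 3616 and 2851 bases between them. The other genes are Mrc1 (chr2:14151041-14253684, plus strand), Cd163 (chr6:124254669-124280545, plus strand), Lyz2 (chr10:116714390-116719377, minus strand), Cd68 (chr11:69477715-69479655, minus strand), Tyrobp (chr7:31198807-31202596, plus strand), Fcer1g (chr1:173159703-173164496, minus strand) and Csf1r. RPKMs were computed per gene from reads of 50 bases. The stretches of 50 bases of each gene's transcripts were compared with the protein-coding transcripts of all other genes, and noncoding transcripts were not searched. For 7 members no such stretch occurred in another protein-coding transcript, and for Cd163 it was 1 of 4491. Lyz2 shared 15.4% of its stretches with its neighbour Lyz1, a second lysozyme gene, and Csf1r shared 15.7% with Hmgxb3, which overlaps it on the opposite strand, so that reads from these stretches could be counted to either gene. Hmgxb3 itself was at 0.816 to 1.24 RPKM in the 6 libraries.

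Many genes of macrophages are transcribed under PU.1, a factor of the ETS family that binds the core GGAA. Promoter sequences, from 250 bases before to 50 bases after the annotated start, were available for 7 of the 10 genes (RefSeq, GRCm38.p6). They are shown for the members that hold the longer ETS-type word AGGAAGT, searched on both strands, since these include Mrc1, the one member called between SCs CTRL and SCs DT below. The word was present in 4 of the 7 promoters (Mrc1, C1qb, C1qc and Lyz2) and in 9.35% of the 32851 promoters of the whole RefSeq table. In each of the 4 it lay on the strand opposite to the gene, so that it reads as ACTTCCT, in capitals in the windows below, which hold 30 bases on either side and are written 5′ to 3′ along the gene:
Mrc1, chr2:14229173-14229239, plus strand, word from 211 bases before the start: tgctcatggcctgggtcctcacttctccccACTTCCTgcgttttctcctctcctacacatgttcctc
C1qb, chr4:136886217-136886283, minus strand, word from 53 bases before the start: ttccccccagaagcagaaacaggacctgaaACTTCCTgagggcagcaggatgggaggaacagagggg
C1qc, chr4:136893073-136893139, minus strand, word from 195 bases before the start: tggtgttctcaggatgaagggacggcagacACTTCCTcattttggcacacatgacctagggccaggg
Lyz2, chr10:117282336-117282402, minus strand, word from 100 bases before the start: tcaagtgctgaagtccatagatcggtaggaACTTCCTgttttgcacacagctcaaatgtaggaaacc
The shorter word GAGGAA, which overlaps AGGAAGT in part, was found in 4 of the 7 promoters (Cd68, C1qb, C1qc and Mrc1) and in 28.3% of all promoters. These words were chosen after the values were known. A match is a description of the letters and not a bound site.

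**Figure D1:**
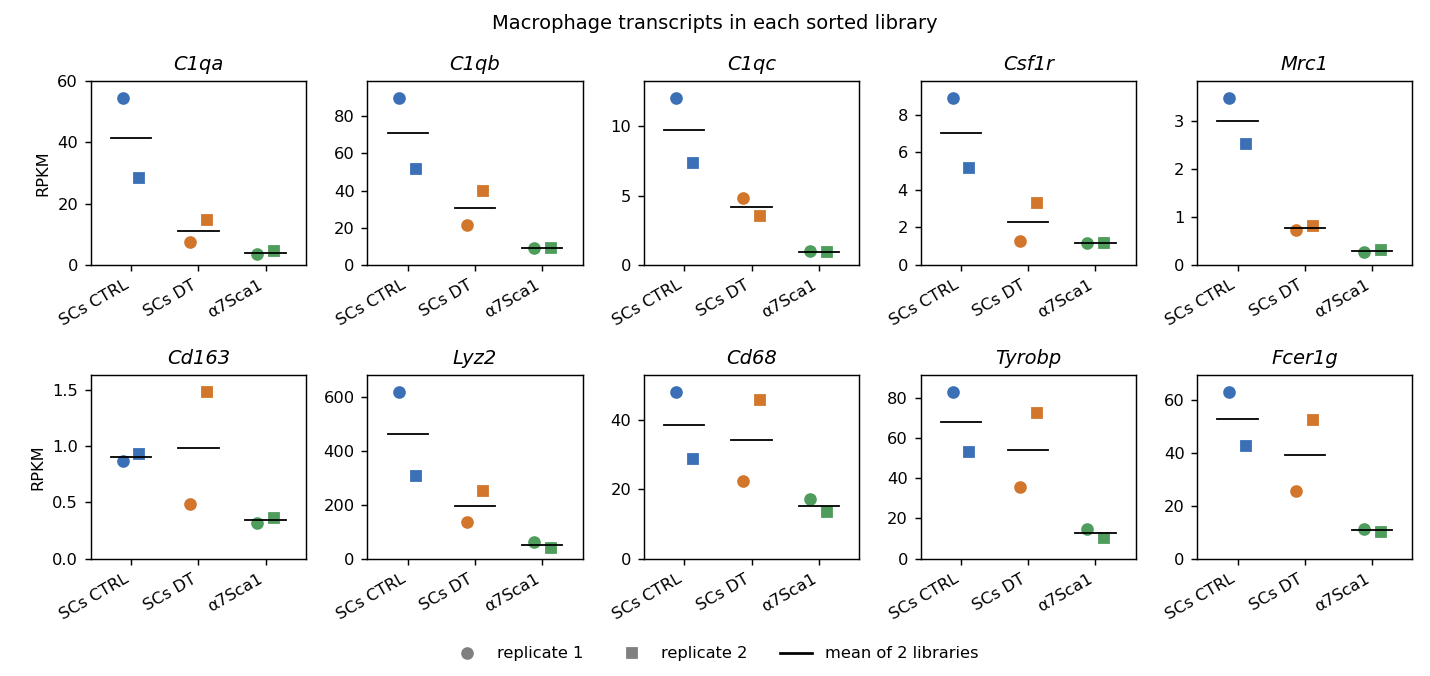
RPKM of each of the 10 macrophage transcripts in the 6 libraries, with one vertical axis from 0 per gene. Points are libraries (circle for replicate 1, square for replicate 2) and horizontal lines are means of 2 libraries. Every gene was lowest in an α7Sca1 library, and 9 of the 10 were highest in the first SCs CTRL library.

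In SCs CTRL the 10 transcripts were present over a wide range, from a mean of 0.900 RPKM for Cd163 to 465 RPKM for Lyz2, which are levels per length of transcript and can be set beside each other. Their sum was 986 and 529 RPKM in SCs CTRL, 258 and 487 in SCs DT, and 121 and 91.5 RPKM in α7Sca1 cells. The group means ran in the order SCs CTRL, SCs DT, α7Sca1 for 9 members, and Cd163 differed from this order by a slightly higher mean in SCs DT than in SCs CTRL. In a bulk library, fewer cells of a type and less RNA per cell cannot be told apart.

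The first comparison was between SCs CTRL and SCs DT, that is, cells sorted as SCs without and with depletion of the macrophages (MΦs) around them. Among the 10 macrophage transcripts, 1 fell with a limma adjusted p under 0.05, against 0.0933% of all genes tested that fell by this rule: Mrc1. For 6 transcripts (C1qa, C1qb, C1qc, Csf1r, Mrc1 and Lyz2) both SCs DT libraries lay below both SCs CTRL libraries, which was the case for 25.1% of all genes, and the same 6 had an unadjusted p under 0.05 with a negative difference, against 5.14%. For the remaining 4 (Cd163, Cd68, Tyrobp and Fcer1g) the groups overlapped. The median difference of the 10 on the log2(RPKM + 1) scale was -1.09, beside -0.01 for all genes tested.

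The chains of C1q are made together by macrophages and assemble into one hexameric protein. C1qa was at 54.6 and 28.2 RPKM in SCs CTRL, at 7.34 and 14.8 RPKM in SCs DT, and at 3.55 and 4.40 RPKM in α7Sca1 cells. C1qb was at 89.9 and 51.5, 21.4 and 39.8, and 9.15 and 8.90 RPKM in the same order. C1qc, the lowest of the chains, was at 12.1 and 7.38, 4.82 and 3.56, and 0.984 and 0.904 RPKM. None of the libraries overlapped between the 3 groups for any of the chains. Between SCs CTRL and SCs DT the fitted log2 difference was -1.81 (SE 0.39, limma adjusted p = 0.134) for C1qa, -1.19 (SE 0.36, adjusted p = 0.297) for C1qb and -1.02 (SE 0.26, adjusted p = 0.199) for C1qc, so that none of the chains passed the threshold. The C1q genes did not keep one ratio over the libraries. The C1qb to C1qa ratio of RPKM was 1.65 and 1.82 in SCs CTRL, 2.92 and 2.69 in SCs DT and 2.58 and 2.02 in α7Sca1 cells. In the 2 SCs DT libraries C1qc moved against the other chains: it was lower in the second library, by a ratio of 0.740 to the first, where C1qa and C1qb were higher by ratios of 2.01 and 1.86.

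Csf1r, on chromosome 18, encodes the receptor through which CSF1 and IL-34 keep macrophages alive. It was at 8.92 and 5.19 RPKM in SCs CTRL, at 1.29 and 3.29 RPKM in SCs DT and at 1.16 and 1.17 RPKM in α7Sca1 cells. Both SCs DT libraries were lower than both controls, with a fitted log2 difference of -1.32 (SE 0.34, limma adjusted p = 0.207). The transcripts of its ligands showed no such order. Csf1 was at 8.13 and 3.80 RPKM in SCs CTRL against 5.70 and 5.72 RPKM in SCs DT, and Il34 was at 5.33 and 3.69 RPKM in SCs CTRL against 7.48 and 8.40 RPKM in SCs DT. Their log2 differences were 0.02 (SE 0.34, adjusted p = 0.999) and 0.71 (SE 0.28, adjusted p = 0.449). Of 7 ligands and myeloid regulators, which besides these were Spi1 (the gene of PU.1), Irf8, Csf2ra, Csf2rb and Csf3r, 0 passed the limma threshold between SCs CTRL and SCs DT. Il34 alone of the 7 had an unadjusted p under 0.05, with a positive difference, against 5.26% of all genes. Spi1 was at 4.18 and 2.24 RPKM in SCs CTRL, 2.05 and 1.93 in SCs DT and 0.484 and 0.541 RPKM in α7Sca1 cells.

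Mrc1 (CD206) is a mannose-binding endocytic receptor and Cd163 the receptor for haptoglobin-haemoglobin complexes, and both are used as markers of resident or alternatively activated macrophages. Mrc1 was at 3.49 and 2.54 RPKM in SCs CTRL, 0.740 and 0.812 in SCs DT and 0.260 and 0.317 RPKM in α7Sca1 cells. Its 2 SCs DT libraries differed from each other less than those of any other member, and its fall to 25.7% of the control mean was called, with a log2 difference of -1.17 (SE 0.17, limma adjusted p = 0.0423). This call was lost when any one of the 6 libraries was left out (adjusted p = 0.0843 to 0.313), although the fitted difference then stayed between -0.99 and -1.34. Over the other alternatives its adjusted p ran from 0.0403 with the replicate number as a block to 0.161 without the filter on low values. Cd163, the least abundant member, was at 0.865 and 0.935 RPKM in SCs CTRL, 0.486 and 1.49 in SCs DT and 0.320 and 0.366 RPKM in α7Sca1 cells. Its SCs DT libraries lay on either side of the controls, and the log2 difference was 0.02 (SE 0.23, adjusted p = 0.999). Without the second SCs DT library it was -0.35 (adjusted p = 0.65).

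Lyz2 (lysozyme M) encodes the secreted enzyme that degrades bacterial cell walls, and Cd68 a glycoprotein of the lysosomal membrane. Lyz2 was the most abundant member, at 622 and 309 RPKM in SCs CTRL, 138 and 253 in SCs DT and 62.1 and 41.6 RPKM in α7Sca1 cells. Its neighbour Lyz1 had the same order at lower values, with 64.2 and 42.2, 14.4 and 26.7, and 7.70 and 5.999 RPKM. The Lyz2 to Lyz1 ratio was 6.94 to 9.69 over the 6 libraries. Cd68 was at 48.2 and 28.9 RPKM in SCs CTRL, 22.5 and 45.7 in SCs DT and 17.2 and 13.4 RPKM in α7Sca1 cells. The SCs DT and SCs CTRL libraries did not overlap for Lyz2 (log2 difference -1.23, SE 0.44, limma adjusted p = 0.387) and overlapped for Cd68 (-0.21, SE 0.39, adjusted p = 0.948). The sign for Cd68 was positive without the first SCs CTRL library (0.15) and without the first SCs DT library (0.29).

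Tyrobp (DAP12) and Fcer1g (the common γ chain of Fc receptors) are small membrane adaptors with immunoreceptor tyrosine-based activation motifs. They pair with receptors such as TREM2 and the activating Fcγ receptors and pass their signal to the kinase SYK. Tyrobp was at 83.0 and 52.9 RPKM in SCs CTRL, 35.7 and 72.2 in SCs DT and 14.7 and 10.4 RPKM in α7Sca1 cells. Fcer1g was at 63.0 and 42.6, 25.6 and 52.4, and 11.3 and 10.03 RPKM in the same order. Both were lower than either control in the first SCs DT library only, and both lay between the controls in the second. The log2 difference was -0.38 (SE 0.39, limma adjusted p = 0.85) for Tyrobp and -0.49 (SE 0.36, adjusted p = 0.739) for Fcer1g, and it turned positive for both without the first SCs DT library (0.12 and 0.02). The Tyrobp to Fcer1g ratio stayed between 1.03 and 1.39 in the 6 libraries. Hcst (DAP10), an adaptor gene that lies 135 bases from Tyrobp, was at 0.524 to 2.12 RPKM.

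**Figure D2:**
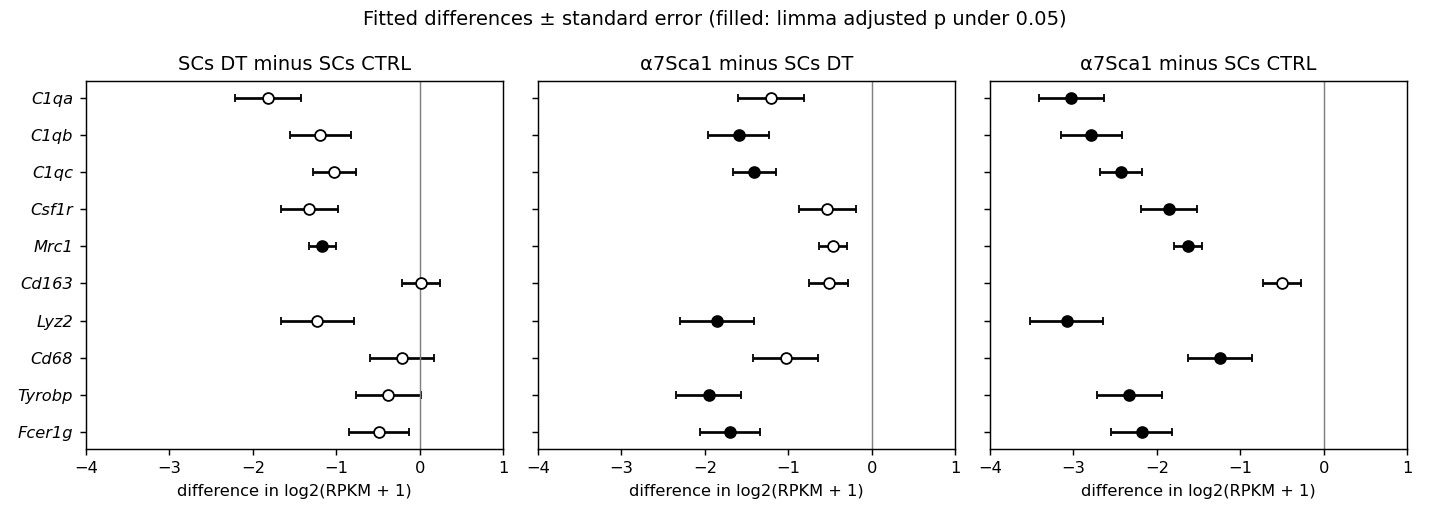
Fitted differences in log2(RPKM + 1) of the 10 macrophage transcripts for the 3 comparisons, with bars of 1 standard error from the limma fit over 6 libraries. Filled points have an adjusted p under 0.05: 1 member (Mrc1) for SCs DT minus SCs CTRL, 5 for α7Sca1 minus SCs DT and 9 for α7Sca1 minus SCs CTRL.

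The 10 transcripts thus differed in how much of the control level was left in SCs DT. The mean of SCs DT in percent of the SCs CTRL mean was 25.7% for Mrc1, 26.7% for C1qa, 32.5% for Csf1r, 42.0% for Lyz2, 43.1% for C1qc and 43.3% for C1qb. It was 73.9% for Fcer1g, 79.3% for Tyrobp, 88.5% for Cd68 and 109.6% for Cd163, and the median over the 10 was 43.2%. The corresponding median over the genes tested that were detected in every library was 98.7%. The library values of neighbours in this order overlapped. In the first SCs DT library the shares were 17.7% to 58.3% for all 10, and in the second they were 26.9% to 56.3% for the first 6 and 99.2% to 165% for the other 4. The 4 members with the highest shares were also those in which the second SCs DT library exceeded the second SCs CTRL library.

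**Figure D3:**
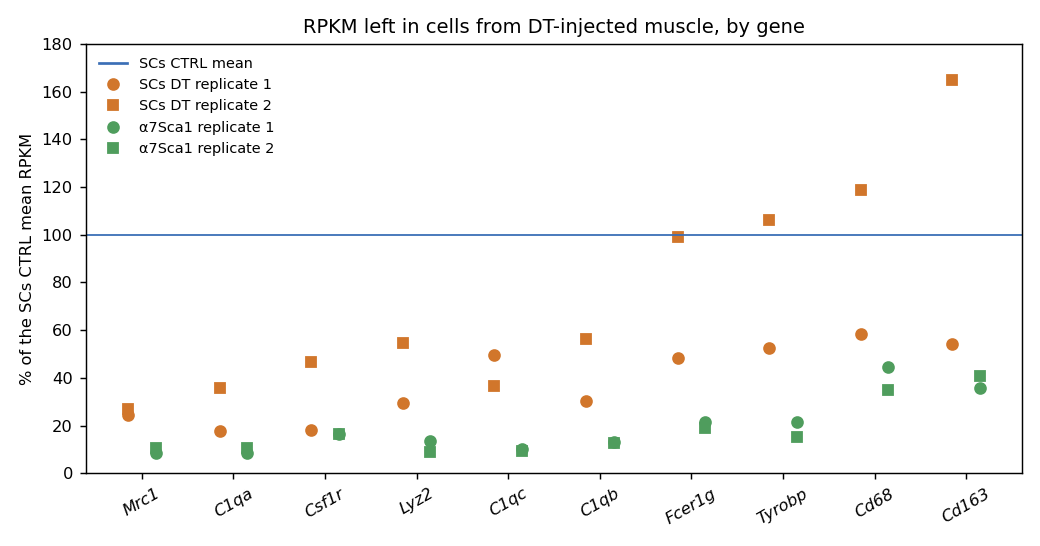
RPKM of each macrophage transcript in SCs DT (orange) and α7Sca1 cells (green), each library separately, in percent of the mean of the 2 SCs CTRL libraries (line at 100%). Genes are ordered by the mean of SCs DT, from 25.7% for Mrc1 to 109.6% for Cd163, and Cd68, Tyrobp and Cd163 exceeded 100% in the second SCs DT library.

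Ratios between members were also taken within each library, although bringing the libraries to one distribution can itself alter such ratios. The Tyrobp to C1qa ratio was 1.52 and 1.88 in SCs CTRL and 4.86 and 4.89 in SCs DT, and 4.16 and 2.35 in α7Sca1 cells. The Cd68 to C1qa ratio was 0.883 and 1.02 in SCs CTRL, 3.06 and 3.10 in SCs DT and 4.84 and 3.05 in α7Sca1 cells. For these ratios all 4 libraries from DT-injected muscle were higher than both controls. The Tyrobp to Csf1r ratio was 9.31 and 10.2 in SCs CTRL, 27.7 and 21.9 in SCs DT and 12.7 and 8.87 in α7Sca1 cells, and the Tyrobp to Mrc1 ratio was 23.8 and 20.9, 48.2 and 88.9, and 56.6 and 32.7. SCs DT libraries were above both controls here too, whereas for Tyrobp to Csf1r 1 α7Sca1 library was below both, and the SCs DT libraries differed between themselves. The ratios were chosen after the values were seen, and with 2 libraries against 2 an exact permutation test cannot go below p = 0.333, so they were not tested.

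Within each SC group 1 library held more of nearly all macrophage transcripts. SCs CTRL 1 exceeded SCs CTRL 2 in 9 of 10 members, Cd163 excepted. The median ratio was 1.65, beside 0.960 for the genes tested that were detected in every library. SCs DT 2 exceeded SCs DT 1 in 9 of 10, C1qc excepted, with a median ratio of 2.02 beside 1.02 for the same genes. The α7Sca1 libraries differed less, with a median ratio of 1.06 and 6 members higher in the first. The level of the 12 pan-leukocyte genes moved with these libraries: their sum was 80.0 and 47.3 RPKM in SCs CTRL, 26.04 and 54.8 in SCs DT and 14.2 and 16.0 RPKM in α7Sca1 cells. Leaving out libraries changed how many macrophage transcripts had a negative difference with an unadjusted p under 0.05 between SCs CTRL and SCs DT, from 3 without SCs CTRL 1 to 8 without SCs DT 2, where 852 and 1064 of the 13934 genes passed this threshold in either direction, while none had an adjusted p under 0.05 in any such fit.

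**Figure D4:**
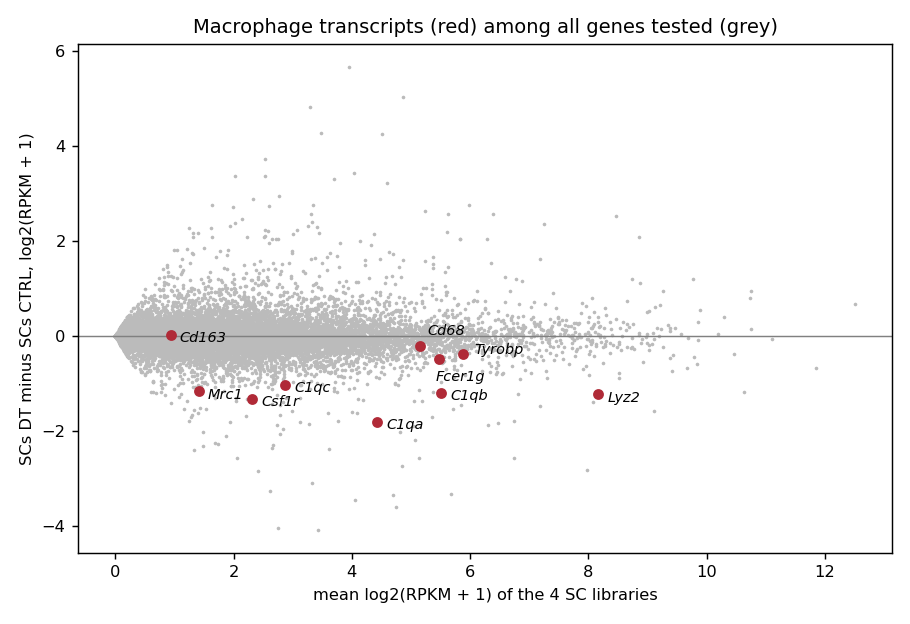
Difference between SCs DT and SCs CTRL in log2(RPKM + 1) against the mean of the 4 SC libraries, for the 13934 genes tested (grey) and the 10 macrophage transcripts (red). The differences of 6 macrophage transcripts lie between -1.02 and -1.81, 3 between -0.21 and -0.49, and Cd163 at 0.02.

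The second comparison was between both populations of DT-injected muscle, α7Sca1 cells and SCs DT. All 10 macrophage transcripts were lower in both α7Sca1 libraries than in both SCs DT libraries, against 36.4% of all genes tested. Of these, 5 fell with a limma adjusted p under 0.05, against 15.6% of all genes: Tyrobp (log2 difference -1.95, SE 0.39, adjusted p = 0.00975), Lyz2 (-1.86, SE 0.44, adjusted p = 0.0186), Fcer1g (-1.70, SE 0.36, adjusted p = 0.0125), C1qb (-1.59, SE 0.36, adjusted p = 0.0161) and C1qc (-1.41, SE 0.26, adjusted p = 0.00666). The other 5 had differences from -0.46 (Mrc1, adjusted p = 0.0727) to -1.21 (C1qa, adjusted p = 0.0547). The mean in α7Sca1 cells was 22.5% (C1qc) to 50.8% (Csf1r) of that in SCs DT. The median log2 difference was -1.31, beside -0.04 for all genes. The count of 5 rested on single libraries: only C1qc passed without SCs DT 2, and likewise without α7Sca1 2. Between 4 and 5 members passed when any other library was left out.

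The third comparison set α7Sca1 cells against SCs CTRL and shares its libraries with the other comparisons. As α7Sca1 cells were sequenced from DT-injected mice only, the difference of population and that of DT injection cannot be told apart here. In comparisons with α7Sca1 cells, fell and rose denote a lower or higher level in that population. In the third comparison 9 members fell, against 17.3% of all genes tested, and all 10 did not overlap between the groups, against 38.1%. On the log2(RPKM + 1) scale the largest fitted differences were those of Lyz2 (-3.08, SE 0.44, limma adjusted p = 0.00233), C1qa (-3.02, SE 0.39, adjusted p = 0.00158) and C1qb (-2.78, SE 0.36, adjusted p = 0.0016). With a pseudocount of 0.1 RPKM the order changed, to C1qa (-3.28), C1qc (-3.19) and Lyz2 (-3.11). Cd163 (-0.50, SE 0.23, adjusted p = 0.136) did not pass, and Cd68 passed narrowly (-1.24, SE 0.39, adjusted p = 0.045). The mean in α7Sca1 cells was 9.57% (Mrc1) to 39.7% (Cd68) of the SCs CTRL mean, with a median of 14.6%. Without SCs CTRL 1 the count was 5 (C1qa, C1qb, C1qc, Lyz2 and Mrc1), and it was 8 to 10 without any other library.

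Other genes of macrophages did not move as one list. Of 30 further macrophage genes 29 were tested, and 0 passed the limma threshold between SCs CTRL and SCs DT in either direction. With an unadjusted p under 0.05, 8 had a negative and 2 a positive difference (Arg1 and Mertk), against 5.14% and 5.26% of all genes. The median log2 difference of the 29 was -0.42. Among them, Emr1 (F4/80) was at 8.96 and 4.86 RPKM in SCs CTRL, 1.91 and 3.50 in SCs DT and 1.32 and 1.15 RPKM in α7Sca1 cells. Itgam itself, whose promoter drives the DT receptor, was at 1.93 and 1.37, 0.831 and 1.73, and 0.562 and 0.531 RPKM in the same order, with overlap between SCs CTRL and SCs DT (log2 difference -0.24, SE 0.22, adjusted p = 0.815). Lgmn, a lysosomal protease, was at 49.6 to 88.9 RPKM in the 4 SC libraries and at 74.1 and 70.7 RPKM in α7Sca1 cells. In α7Sca1 cells 15 of the 29 fell and 2 rose relative to SCs CTRL, against 17.3% and 15.1% of all genes. Relative to SCs DT 7 fell and 2 rose, against 15.6% and 14.6% of all genes. Among those that rose relative to SCs DT was Cd14, the co-receptor for lipopolysaccharide. It was at 110.04 and 74.5 RPKM in SCs CTRL, 42.6 and 105.6 in SCs DT and 194 and 197 RPKM in α7Sca1 cells (log2 difference from SCs DT 1.53, SE 0.43, adjusted p = 0.0332). Irf8, of the list of ligands and regulators, was at 11.1 RPKM in both α7Sca1 libraries and 1.57 to 3.04 RPKM in SCs (log2 difference from SCs DT 1.94, SE 0.24, adjusted p = 0.00143). Cd14 and Irf8 were thus highest where the 10 transcripts were lowest.

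The receptors and kinases that work with Tyrobp and Fcer1g were 20 genes, of which 19 were tested. Between SCs CTRL and SCs DT 0 passed the limma threshold. With an unadjusted p under 0.05, 4 had a negative difference, against 5.14% of all genes. Fcgr3, an activating Fcγ receptor, was at 12.1 and 11.3 RPKM in SCs CTRL, 3.10 and 8.36 in SCs DT and 2.68 and 2.21 RPKM in α7Sca1 cells. Trem2, a lipid-sensing receptor, was at 14.5 and 6.44, 4.04 and 7.34, and 2.56 and 1.90 RPKM. Relative to SCs CTRL, 11 of the 19 fell in α7Sca1 cells, against 17.3% of all genes, and none rose. Fcgr3 (log2 difference -1.88, SE 0.36, adjusted p = 0.00783) and Trem2 (-1.74, SE 0.39, adjusted p = 0.0135) were among those that fell. Clec4e and Fcgr1 were the 2 of the 19 that fell relative to SCs DT, against 15.6% of all genes.

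The remaining complement genes moved in both directions. Of 12 other complement genes, C3, the central component on which the pathways converge, rose in SCs DT, where 0.352% of all genes rose. It was at 2.10 and 0.955 RPKM in SCs CTRL, 11.9 and 27.1 in SCs DT and 261 and 306 RPKM in α7Sca1 cells, with a log2 difference of 2.95 (SE 0.40, limma adjusted p = 0.0371) between the SC groups. In α7Sca1 cells 8 of the 12 rose relative to SCs CTRL, against 15.1% of all genes, and 7 relative to SCs DT, against 14.6%. These included the proteases C1ra and C2 and the factors C4b and Cfb. Cfp (properdin) fell in both comparisons, with a log2 difference of -1.23 (SE 0.35, adjusted p = 0.0335) from SCs DT. C5ar1, a receptor for the fragment C5a, fell relative to SCs CTRL (log2 difference -1.25, adjusted p = 0.0329), and C3ar1, the receptor for C3a, had a log2 difference of -1.29 (adjusted p = 0.0532). Between the SC groups 4 of the 12 had a negative difference. The summed level of the 12 genes was 221 and 141 RPKM in SCs CTRL, 203 and 305 in SCs DT and 1178 and 1530.3 RPKM in α7Sca1 cells.

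Markers of the cell types that the gate was set to exclude, and of other leukocytes, were measured in the same libraries. Ptprc, the gene of CD45, was at 2.80 and 1.80 RPKM in SCs CTRL, 0.748 and 1.15 in SCs DT and 0.366 and 0.513 RPKM in α7Sca1 cells (log2 difference between the SC groups -0.75, SE 0.20, limma adjusted p = 0.225). None of the 12 pan-leukocyte genes passed between SCs CTRL and SCs DT. There 5 had an unadjusted p under 0.05, all with a negative difference, against 5.14% of all genes. Relative to SCs CTRL, 11 of the 12 fell in α7Sca1 cells, against 17.3% of all genes. The MHC class II list summed to 464 and 256 RPKM in SCs CTRL, 31.1 and 30.5 in SCs DT and 43.7 and 28.8 RPKM in α7Sca1 cells. Of its 7 tested genes 4 (H2-Ab1, H2-Eb1, Cd74 and H2-Aa) fell between the SC groups, against 0.0933% of all genes. The SCs DT mean of that list was 8.55% of the SCs CTRL mean, while that of the 10 macrophage transcripts was 49.2%. Lyz2 made up much of the sum of the 10, with 465 of 758 RPKM in the SCs CTRL mean and 196 of 372 RPKM in the SCs DT mean. The 11 dendritic and mast cell genes summed to 6.07 and 5.41 RPKM in SCs CTRL against 1.59 and 1.65 RPKM in SCs DT, and Cd209a of that list fell (log2 difference -0.82, SE 0.10, adjusted p = 0.026).

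The 5 erythroid genes summed to 54.2 and 33.7 RPKM in SCs CTRL, 9.60 and 5.14 in SCs DT and 10.1 and 1.93 RPKM in α7Sca1 cells. Of 4 tested genes 0 were called between the SC groups. A negative difference with an unadjusted p under 0.05 was found for 3, against 5.14% of all genes. The neutrophil list of 11 genes summed to 15.5 and 13.5 RPKM in SCs CTRL against 36.3 and 50.3 RPKM in SCs DT. S100a8 alone of 9 tested genes rose (log2 difference 2.17, SE 0.24, limma adjusted p = 0.0152), against 0.352% of all genes. The median difference of the 9 was 0.10, 3 were negative, and S100a8 and S100a9 made up much of the sum in SCs DT. The 10 endothelial genes summed to 56.8 and 37.3 RPKM in SCs CTRL, 56.3 and 67.4 in SCs DT and 34.1 and 17.0 RPKM in α7Sca1 cells. Between the SC groups 0 were called, and 1 had a positive difference with an unadjusted p under 0.05, against 5.26% of all genes. The 12 lymphocyte genes were at 0.543 to 2.72 RPKM in sum, 11 of them below 1 RPKM in every library. No gene of these lists was at 0 in all 6 libraries. The part of leukocytes or other cells passing the gate in the levels of the 10 transcripts was not tested.

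**Figure D5:**
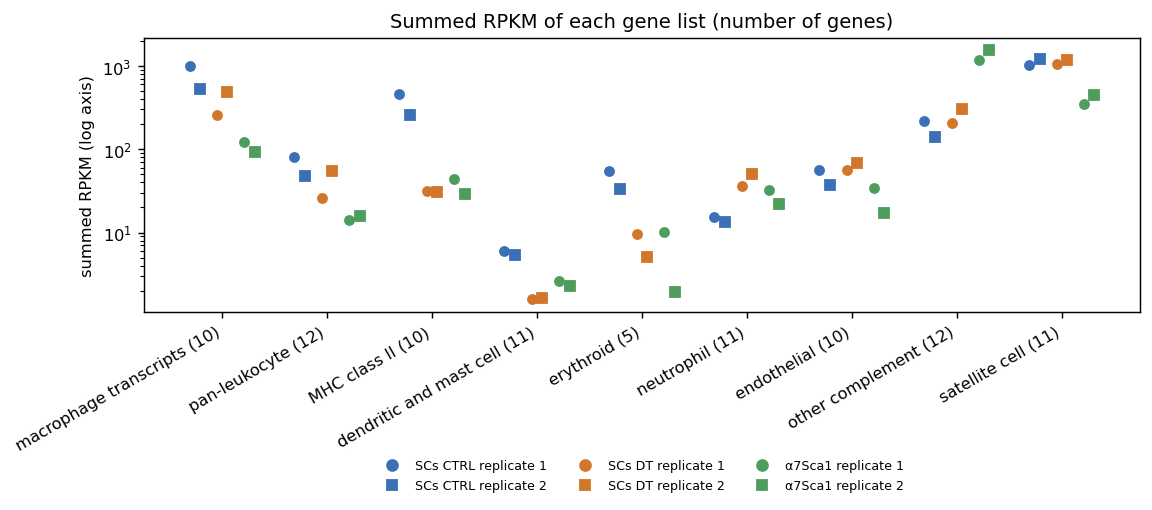
Summed RPKM of gene lists in each library, on a logarithmic axis, with the number of genes in brackets. The 10 macrophage transcripts ran from 986 RPKM in the first SCs CTRL library to 91.5 RPKM in the second α7Sca1 library, and the pan-leukocyte genes from 80.0 to 14.2 RPKM, whereas the other complement genes were highest in α7Sca1 cells.

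Genes with the most similar course over the 6 libraries were looked for among 9193 genes with at least 1 RPKM in SCs CTRL. Pearson's r between log2(RPKM + 1) of a gene and the mean standardised course of the 10 members was highest for Aif1 (0.997), a calcium-binding protein of macrophages also known as IBA1. Aif1 was at 5.34 and 3.87 RPKM in SCs CTRL, 2.11 and 3.66 in SCs DT and 1.097 and 1.21 RPKM in α7Sca1 cells. Among the next were Rab8b, Xpr1, Slamf7, Lyz1, Mir31, Ppt1, Bdkrb1 and Slc37a2, down to r = 0.990. Slamf7 is a receptor of leukocytes, whereas Ppt1, a lysosomal thioesterase at 11.8 to 24.1 RPKM, is made by most cells. Each member was compared in the same way with the other 9. C1qb (0.997) and Lyz2 (0.991) followed the common course most closely, and Mrc1 (0.886) and Cd163 (0.760) least. The points are 6 libraries in 3 groups that share one scaling, and the values of r describe these libraries only.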

How the data were processed

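RNA-Seq libraries (SMART-seq2 from 5 ng of total RNA, single-end reads of 50 bases) were aligned by the authors to mm9 with TopHat (the submitters' processing notes name TopHat2 2.0.8). The authors deposited RPKM values per gene, already on one distribution, so depth is unknown and no counting interval is given. Use of strand is not given in the sources used here. A deposited table of the authors' own comparison (fold changes and p-values), with 10 further columns of values per sample, was not used. A linear model of log2(RPKM + 1) was made here with limma 3.58.1 in R 4.3.3, using the 6 libraries together and a variance trend, for 13934 genes above 0.25 RPKM in at least 1 library, without a replicate block. P-values are two-sided and adjusted by Benjamini-Hochberg over these genes with a threshold of 0.05. They rest on 3 residual degrees of freedom and on 4.29 prior degrees of freedom that limma took from the spread of all genes tested. Fold changes on this scale understate those of low genes. The fit was tested on simulated data. Members, lists and tests were chosen with earlier results of these data known. Genes named outside the members were, per list, up to 4 that passed between SCs CTRL and SCs DT or else the 2 of highest mean RPKM, and the 10 most similar in course. Other genes named from the lists, such as Emr1, Itgam, Irf8, Cfp and C5ar1, were chosen after their values were seen. The named genes of the FAP, adipocyte, SC and lymphocyte lists are not described singly, and some genes of the lists are not reported here. Other settings tried were a pseudocount of 0.1 or 0.5 RPKM, a looser and a stricter filter, median-ratio rescaling, quantile normalization, fits on the groups compared, a replicate block, no variance trend, and each library left out. Gene positions were read from GENCODE mouse release 1 (NCBIM37) and promoters from RefSeq (GRCm38.p6). Python 3.11.15, pandas 2.3.3, numpy 2.4.6 and matplotlib 3.10.9 were also used.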

Additional observations from a re-analysis of the deposited data

How the results depend on the processing

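Between SCs CTRL and SCs DT the number of the 10 macrophage transcripts called by limma went from 1 to 0 with a pseudocount of 0.1 RPKM (all genes called: 64 in place of 62). It was also 0 without the filter on low values (all genes: 4) and after rescaling by median ratios (all genes: 51). It was 0 in a fit on the 2 SC groups alone (all genes: 1) and without the variance trend (all genes: 35). It was 0 without any one library (all genes: 0 to 24). The sign turned for members that were never called: Cd163 was -0.052 with a pseudocount of 0.1 RPKM and -0.00019 with 0.5 RPKM, and without 1 library the log2 differences ranged from -0.35 to 0.39 for Cd163, -0.71 to 0.29 for Cd68, -0.88 to 0.12 for Tyrobp and -0.99 to 0.015 for Fcer1g, the ends being those without SCs DT 2 and without SCs DT 1. Without 1 library the calls ranged from 1 to 5 members (1590 to 4391 genes) for α7Sca1 against SCs DT and from 5 to 10 members (1741 to 4690 genes) for α7Sca1 against SCs CTRL, and all differences of members remained negative. The median share of the SCs CTRL level ranged from 34.4% to 61.3% in SCs DT and from 11.5% to 20.0% in α7Sca1 cells, and was 15.9% in the latter after rescaling by median ratios. The cause of these changes was not tested. Deviations of same-numbered libraries from their group means correlated at r = -0.131 between SCs CTRL and SCs DT, 0.255 between SCs DT and α7Sca1 and 0.162 between SCs CTRL and α7Sca1 (13934 genes), and as not every pair of groups was positive and each has only 2 numbers, the numbers were not taken as pairs. A fit with the replicate block called 1, 5 and 8 members (92, 4336 and 4636 genes) in the 3 comparisons, the lost call being Cd68. With crossed numbers in the SC libraries alone, added after seeing the data, 2 members (C1qa and Csf1r, but not Mrc1) and 113 genes were called. Each group has 2 pools, and unknown depth limits what can be said of low transcripts such as Cd163.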
